A study of Caenorhabditis elegans with 12 samples.

Results

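MicroRNAs of wild-type *Caenorhabditis elegans* were compared between day 14 and day 1 of adulthood. The worms were of the strain N2 and were sampled whole. The labels give no transgene and no drug. Day 14, a middle-aged stage past the end of egg laying, was set against day 1, the start of adulthood. Each age had 3 biological replicates, each a pool of handpicked worms, so that 6 of the 12 libraries of the time course entered the comparison. The other 6 were from days 7 and 21. They entered the estimate of the spread between replicates and the choice of which microRNAs had enough counts to be tested, but not the contrast. Worms that had died or hatched progeny internally were taken off the plates, and the day 14 pools therefore held survivors. The deposited table named 368 mature microRNAs, and all of them were considered.

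A microRNA is cut from a hairpin RNA that carries a potential mature strand on each side. The strand from the left side is called 5p and the strand from the right side 3p. Usually 1 strand is kept in an Argonaute protein and its partner is degraded. The kept strand pairs with messenger RNAs mainly through its seed, bases 2 to 8, and represses them. MicroRNAs with the same seed form a family. In worms, lin-4 and let-7 time the passage through the larval stages, and the miR-35 family is made in the female germline and in embryos.

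The study was built around *mir-83*, whose 3p strand shares its seed with mammalian miR-29. The sequence of miR-83-3p is shown because it is the microRNA that the study went on to follow. It is the sense strand of the miR-83 mimic designed for the study, with the seed in capitals.
miR-83-3p: tAGCACCAtataaattcagtaa
The hairpin lies on chromosome IV from 7841631 to 7841728 on the plus strand of WBcel235, between protein-coding genes.

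The day 14 libraries held 6770863, 7388727 and 6652468 counts, against 11620236, 5784056 and 16867232 in the day 1 libraries. MicroRNAs with at least 1 count numbered 286, 291 and 292 at day 14 and 301, 277 and 305 at day 1. After thinning every library to 5782871 counts they numbered 285, 291 and 288 at day 14 and 284, 277 and 280 at day 1. In a principal component analysis of the log2 levels of all 12 libraries, component 1 held 79.4% of the variance. Day 14 libraries scored 14.4, 7.83 and 7.99 on it, against −18.2, −19.4 and −17.3 for day 1. Day 14 replicate 1 stood apart from its group. It lay beside day 21 replicates 2 and 3 (14.0 and 14.2), while day 21 replicate 1 (7.72) lay beside day 14 replicates 2 and 3. The labels were kept as given, and the main counts are also given without day 14 replicate 1. Levels below are in CPM, which puts all libraries on 1 total after correction by TMM factors, with SD and n = 3 where an error is shown.

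Most of the microRNAs that could be tested differed between the ages. Enough counts for a test were found for 245 of the 368, and 169 of these (69.0%) passed a threshold of 0.05 on the adjusted p of the edgeR quasi-likelihood test. Of them 84 were higher at day 14 (34.3%) and 85 were lower (34.7%). Without adjustment 175 had a p under 0.05. The 3 day 14 libraries did not overlap the 3 day 1 libraries for 171 microRNAs (69.8%). Among these were 159 of the 169 called microRNAs. A change of at least 2-fold, 1 on the log2 scale, was seen for 72 that rose and 66 that fell. At 8-fold or more, 3 on the log2 scale, there were 34 rises and 12 falls. The median log2 fold change over the 245 was −0.12. Scaling by total counts moved that median to −0.41 and gave 69 higher and 99 lower, so small changes below are relative to the scaling used.

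Without day 14 replicate 1 the test called 72 higher and 74 lower. For 100 of the 169 called microRNAs this library was the day 14 library farthest from the day 1 mean, against 30 for replicate 2 and 39 for replicate 3. No called microRNA changed direction when this library was left out.

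**Figure D1:**
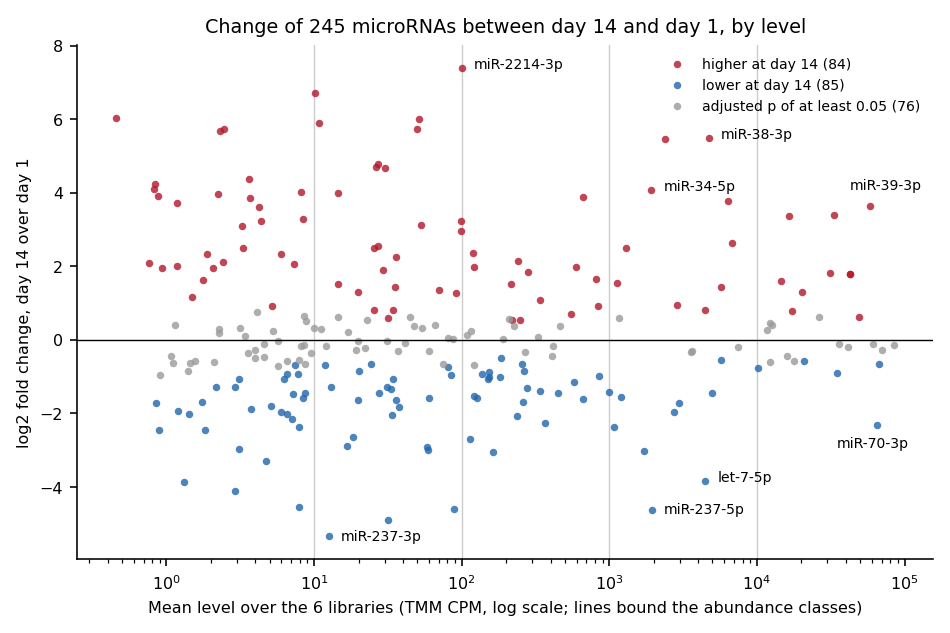
The log2 fold change of day 14 over day 1 (vertical axis) is plotted against the mean level over the 6 libraries (horizontal axis, CPM on a log scale) for the 245 tested microRNAs, with 84 higher in red, 85 lower in blue and 76 others in grey. Rises reached 7.39 and falls −5.34 on the log2 scale, and calls of both directions stood in every abundance class.

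The microRNA that took the largest part of the libraries was not the same at both ages. miR-39-3p, of the miR-35 family, led in each day 14 library. It had 136164, 105832 and 81389.7 CPM in the day 14 libraries, against 7035, 10859.7 and 7920.4 CPM in the day 1 libraries. Every day 14 library lay above every day 1 library, and the log2 fold change was 3.65 (SE 0.30, edgeR adjusted p = 1.3e-07). miR-80-3p led in day 1 replicates 1 and 3, with 81379 and 113171 CPM, and miR-70-3p in day 1 replicate 2, which also gave miR-70-3p the highest mean at day 1. The *mir-70* hairpin lies on chromosome V in an intron of *pmp-5*, on the strand of that gene. miR-70-3p had 10363, 30929 and 23450.3 CPM in the day 14 libraries, against 80062, 160977 and 82407 CPM in the day 1 libraries. All day 14 libraries were below all day 1 libraries, with day 14 replicate 1 the lowest, and the log2 fold change was -2.32 (SE 0.48, edgeR adjusted p = 0.00066). Of the 10 most abundant at each age, 5 were shared. These were miR-71-5p, miR-82-3p, miR-56-3p, miR-55-3p and miR-80-3p. The 10 most abundant of each library together held 58.9% ± 2.24 at day 14 and 66.0% ± 5.18 at day 1 (SD, n = 3 each) of its counts.

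Of the 27 microRNAs at 10000 CPM or more over the 6 libraries, 10 rose (37.0%) and 5 fell (18.5%). Over all tested 34.3% rose and 34.7% fell, so the share of rises was near that over all. The rises besides miR-39-3p were those of miR-35-3p (3.39 on the log2 scale), miR-40-3p (3.38), miR-72-5p (1.82), miR-44-3p and miR-45-3p (1.79 each), miR-52-5p (1.61), miR-73-3p (1.31), miR-238-3p (0.79) and miR-55-3p (0.62), with edgeR adjusted p from 1.1e-08 to 0.024. The falls besides miR-70-3p were those of miR-81-3p (-0.90), miR-1-3p (-0.78), miR-80-3p (-0.64) and miR-48-5p (-0.58), with adjusted p from 0.0059 to 0.041. Libraries of both ages overlapped for miR-80-3p and miR-81-3p. Since miR-44-3p and miR-45-3p had the same counts in 5 of the 6 libraries, they enter these rises, the 10 most abundant at day 14 and the library totals on separate lines with nearly the same counts. The call of miR-55-3p was lost without day 14 replicate 1 or 3 or day 1 replicate 1 or 3 or with scaling by total counts or with no filter on low counts (edgeR adjusted p = 0.062 to 0.16). That of miR-80-3p was lost without day 14 replicate 1 or 2 or day 1 replicate 1 or 3 or in a fit of only day 14 and day 1 (edgeR adjusted p = 0.057 to 0.18). miR-81-3p lost its call without day 14 replicate 3 or day 1 replicate 2 or in a fit of only day 14 and day 1 (edgeR adjusted p = 0.052 to 0.1), and miR-48-5p without day 14 replicate 1 or 2 or day 1 replicate 1 or 3 or in a fit of only day 14 and day 1 (edgeR adjusted p = 0.062 to 0.11). The 5 falls became 9 with scaling by total counts and 2 in a fit of only day 14 and day 1. They became 3 without day 14 replicate 1 or 2 or day 1 replicate 1 or 3.

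The other 12 of these 27 did not pass the test. miR-71-5p, which lengthens worm life, had 85254, 96706 and 59802 CPM in the day 14 libraries, against 62198, 127397 and 79314 CPM in the day 1 libraries. The log2 fold change was -0.15 (SE 0.32, edgeR adjusted p = 0.67). miR-56-3p, miR-82-3p, miR-58-3p and miR-51-5p had log2 fold changes of -0.12, -0.27, -0.12 and -0.19, with edgeR adjusted p of 0.65, 0.43, 0.67 and 0.63. For each of them the libraries of both ages overlapped. The rest were miR-228-5p (0.62), miR-57-5p (0.45), miR-90-3p (0.41), miR-66-5p (0.26), miR-64-5p (-0.44), miR-65-5p (-0.58) and miR-77-3p (-0.60). miR-65-5p (edgeR adjusted p = 0.056) was called lower in 8 of 15 alternatives, among them DESeq2 (adjusted p = 0.037), RLE factors (0.043) and total counts (0.02). Scaling by total counts also called miR-56-3p, miR-77-3p and miR-82-3p lower. Without day 1 replicate 2, miR-228-5p and miR-57-5p were called higher and miR-64-5p, miR-65-5p and miR-77-3p lower.

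By abundance, the share called higher was 32.1% of 84 tested under 10 CPM, 35.9% of 64 from 10 to 100, 29.8% of 47 from 100 to 1000, 43.5% of 23 from 1000 to 10000 and 37.0% of 27 above. The share called lower was 32.1%, 34.4%, 46.8%, 39.1% and 18.5% in the same order, beside 34.7% over all. The median log2 fold change was −0.31, 0.04, −0.44, −0.18 and 0.26 in that order. Within each class the values spread far more than the medians did, and no test was made between classes. The class of at least 10000 CPM took 90.5% ± 0.447 at day 14 and 90.1% ± 1.01 at day 1 (SD, n = 3 each) of the counts. Below 10 CPM a further 123 microRNAs had too few counts to be tested. Of these, 43 had no count in any of the 6 libraries and 80 had at least 1, with at most 28 in a library.

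The filter that admits a microRNA to the test bears on these counts. At both ages 188 microRNAs reached its level, here in all 3 libraries of an age, and of them 55 rose and 66 fell. A further 18 reached it at day 14 only, of which 18 rose, and 22 at day 1 only, of which 19 fell. Such microRNAs were admitted by the age at which they are high, so the filter favoured these directions. Another 17 reached it at neither age, and 11 of them rose. Single day 14 libraries could still count toward their admission. miR-1832b-3p, for example, had 13 and 12 counts in day 14 replicates 2 and 3, which passed the cut. The filter could therefore favour rises here as well. With at least 10 counts in each of the 6 libraries, 187 were tested, of which 54 rose and 66 fell.

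**Figure D2:**
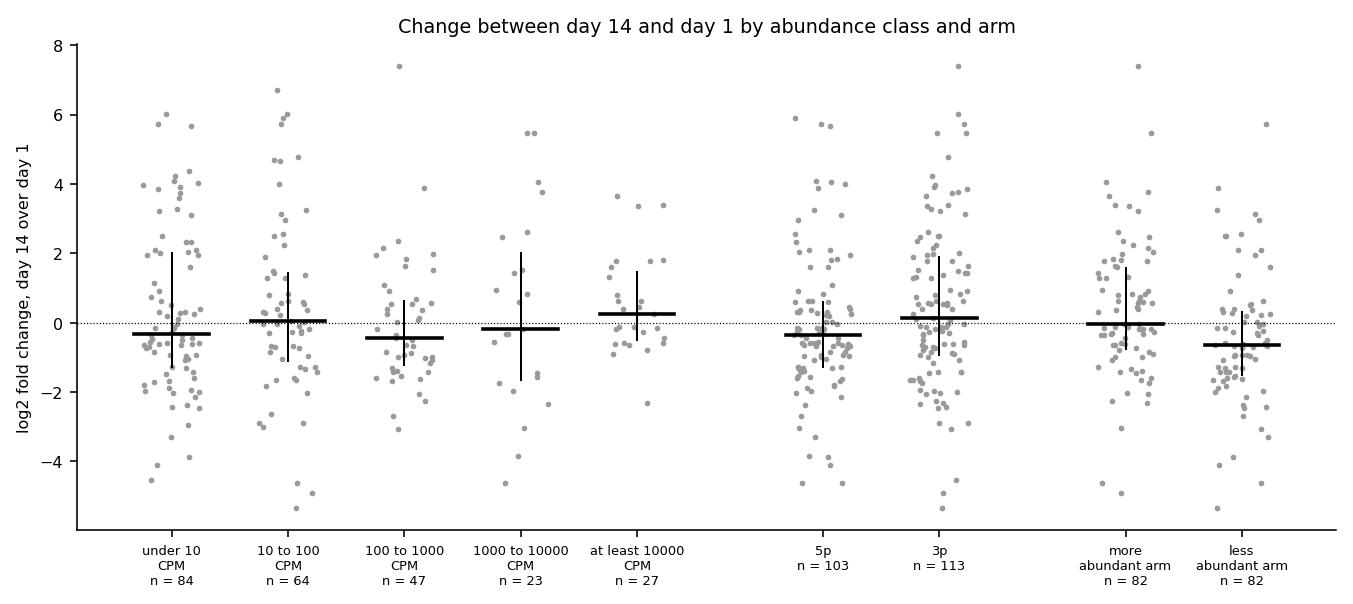
Each point is the log2 fold change of day 14 over day 1 of a tested microRNA, by abundance class (CPM over the 6 libraries), by the arm in its name, and for the 82 hairpins with both arms tested by the more and the less abundant arm. Thick lines are medians and thin lines the middle 50% of values. The less abundant arms had a median of −0.65 and the more abundant arms −0.04.

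The largest rises were of microRNAs that were nearly absent at day 1. miR-2214-3p had 387, 116 and 97.4 CPM in the day 14 libraries, against 1.15, 1.56 and 1.00 CPM in the day 1 libraries. Day 14 replicate 1 was the highest, and the log2 fold change was 7.39 (SE 0.79, edgeR adjusted p = 1.9e-06). The other arm, miR-2214-5p, had 180.0, 65.3 and 48.1 CPM in the day 14 libraries, against 0.896, 5.28 and 0.686 CPM in the day 1 libraries, with a log2 fold change of 5.73 (SE 0.84, edgeR adjusted p = 3.9e-05). Their hairpin lies on chromosome III in an intron of *B0361.11*, on the strand of that gene. miR-1823 had 27.8, 16.0 and 16.2 CPM in the day 14 libraries, against 0.192, 0.195 and 0.158 CPM in the day 1 libraries. The groups were far apart and the log2 fold change was 6.71 (SE 0.45, edgeR adjusted p = 2.7e-08). miR-796 had 133, 78.5 and 91.0 CPM in the day 14 libraries, against 1.28, 1.76 and 1.69 CPM in the day 1 libraries, with a log2 fold change of 6.01 (SE 0.35, edgeR adjusted p = 7.2e-09). miR-2208a-5p, with 31.8, 18.8 and 12.8 CPM in the day 14 libraries, against 0.0640, 0.782 and 0.422 CPM in the day 1 libraries, changed by 5.89 (SE 0.73, edgeR adjusted p = 8.1e-06) on the same scale. miR-1832a had 58.2, 59.1 and 35.0 CPM in the day 14 libraries, against 1.41, 3.52 and 1.48 CPM in the day 1 libraries, and its log2 fold change was 4.71 (SE 0.45, edgeR adjusted p = 5.6e-07). For each of these 6 microRNAs the lowest day 14 library was above the highest day 1 library. Of them, miR-2214-3p, miR-2214-5p, miR-1823 and miR-2208a-5p reached the level of the filter at day 14 but not at day 1. They were admitted by ages at which they were high, so their calls and lack of overlap are not independent of the filter.

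At higher levels, miR-38-3p and miR-42-3p of the miR-35 family showed the steepest rises. miR-38-3p had 9786, 9517 and 8345 CPM in the day 14 libraries, against 185, 225 and 207 CPM in the day 1 libraries. The 3 libraries of each age were close together, and the log2 fold change of 5.48 (SE 0.25, edgeR adjusted p = 3e-10) corresponded to 44.8-fold. miR-42-3p had 5341, 4693 and 4015 CPM in the day 14 libraries, against 91.6, 103 and 122 CPM in the day 1 libraries. It changed by 5.47 (SE 0.24, edgeR adjusted p = 3e-10), or 44.3-fold. miR-43-3p, which lies beside *mir-42* but has another seed, had 56.2, 39.6 and 60.6 CPM in the day 14 libraries, against 1.41, 2.35 and 2.06 CPM in the day 1 libraries. This gave a log2 fold change of 4.78 (SE 0.36, edgeR adjusted p = 6.5e-08).

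A few rises rested on single counts at day 1. miR-2215-3p had 17 counts at day 14 and 0 at day 1, which made it at least 12.1-fold higher against a floor of 3 counts over the day 1 libraries. miR-2220-3p had 86 counts at day 14 and 3 at day 1, a ratio of 61.1 per scaled library size (95% exact interval 20.2 to 302). miR-5593-5p had 85 counts at day 14 and 3 at day 1, a ratio of 60.4 (20.0 to 299). miR-1832b-3p, with 31 counts at day 14 and 3 at day 1, had a ratio of 22.0 (6.87 to 113), and miR-2207-5p, with 29 counts at day 14 and 3 at day 1, had 20.6 (6.39 to 106). All 5 passed the edgeR test, with adjusted p from 4.9e-07 to 0.00058, though none reached the level of the filter at day 1. These intervals cover counting error only.

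**Figure D3:**
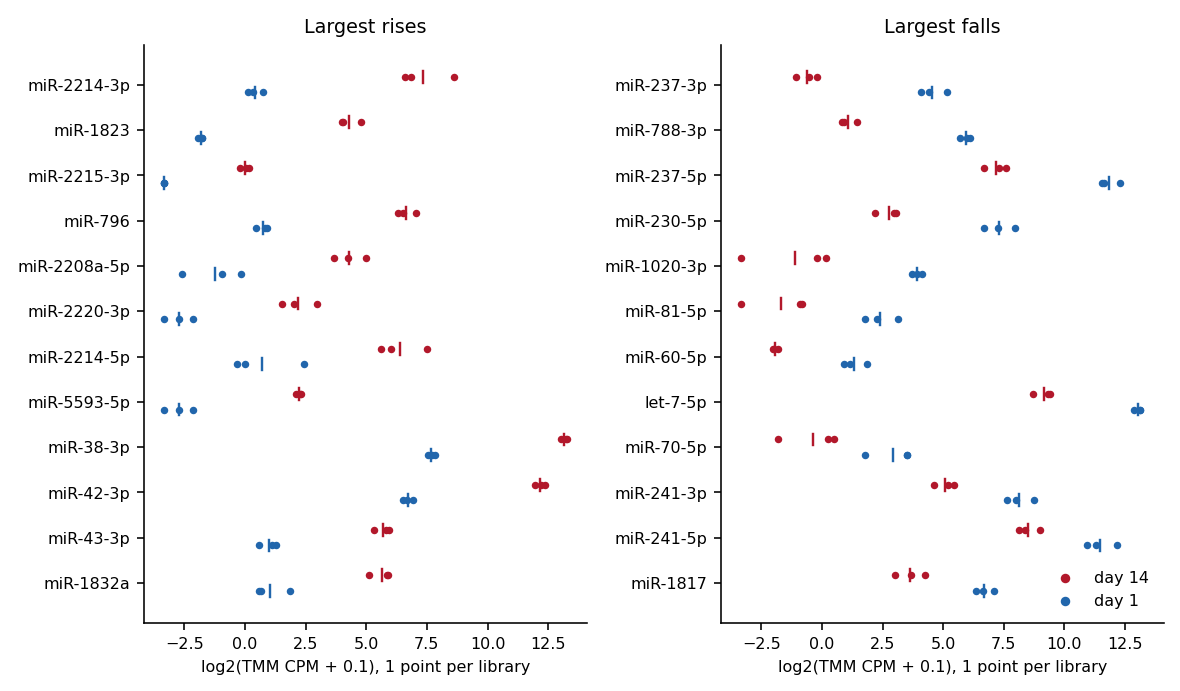
Levels in each library, as log2 of CPM plus 0.1, of the 12 microRNAs with the largest rise (left) and the 12 with the largest fall (right) among those called without overlap. Red points are day 14 and blue points day 1, with a bar at each mean. The groups do not overlap for any of the 24, and a library with no count stands at the left end.

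The largest falls included microRNAs of larval timing. let-7-5p, which drives the passage from larva to adult, had 418, 672 and 649 CPM in the day 14 libraries, against 7473, 8801 and 8799.7 CPM in the day 1 libraries. The groups were far apart, and the log2 fold change of -3.85 (SE 0.31, edgeR adjusted p = 1.1e-07) made it 14.4-fold lower at day 14. miR-237-5p, of the lin-4 family, had 104, 192 and 158 CPM in the day 14 libraries, against 3155, 5025 and 3003 CPM in the day 1 libraries. It fell by 4.62 on the log2 scale (SE 0.34, edgeR adjusted p = 4.4e-08). The other arm, miR-237-3p, fell by 5.34 (edgeR adjusted p = 1.1e-07). That was the largest fall of all, on 2, 5 and 4 counts at day 14 and 329, 182 and 321 counts at day 1. This arm reached the level of the filter at day 1 and not at day 14, so it was admitted where it was high. lin-4-5p, which opens the later larval programmes, had 1169, 1217 and 946 CPM in the day 14 libraries, against 3809, 4072 and 5141 CPM in the day 1 libraries. Its log2 fold change was -1.97 (SE 0.25, edgeR adjusted p = 8.3e-06). All 3 tested arms of the lin-4 family, from *lin-4* and *mir-237*, fell, beside 34.7% called lower over all tested. The family took 0.112% ± 0.0120 at day 14 and 0.888% ± 0.0702 at day 1 (SD, n = 3 each) of the counts.

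The let-7 family was not uniform. Of its 12 tested arms 2 rose, 6 fell and 4 did not pass, with a median log2 fold change of -0.50 against −0.12 over all tested, where 34.3% rose and 34.7% fell. miR-241-5p, which acts with miR-48 and miR-84 before let-7 in the larva, had 280.1, 504 and 331 CPM in the day 14 libraries, against 1946, 4653 and 2538 CPM in the day 1 libraries. Its log2 fold change was -3.03 (SE 0.39, edgeR adjusted p = 1e-05) and that of miR-241-3p was -3.06 (edgeR adjusted p = 1.9e-06). miR-48-5p, from a hairpin next to *mir-241*, changed far less. It had 16368, 16717 and 17087 CPM in the day 14 libraries, against 27260.4, 17524 and 30364 CPM in the day 1 libraries. miR-84-3p was higher, with 101 ± 17.3 CPM at day 14 and 39.2 ± 11.9 CPM at day 1 and a log2 fold change of 1.37 (SE 0.26, edgeR adjusted p = 0.0004). The family took 2.15% ± 0.262 at day 14 and 4.59% ± 1.37 at day 1 (SD, n = 3 each) of the counts. Its 2 rises became 1 without day 14 replicate 1 or 3 or day 1 replicate 2 or with scaling by total counts, and its 6 falls became 3 in a fit of only day 14 and day 1.

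Other large falls had no shared family. miR-788-3p had 1.69, 2.62 and 1.76 CPM in the day 14 libraries, against 52.0, 69.6 and 62.8 CPM in the day 1 libraries, with a log2 fold change of -4.91 (SE 0.40, edgeR adjusted p = 1.1e-07). miR-230-5p had 4.51, 8.31 and 7.79 CPM in the day 14 libraries, against 104, 250.1 and 154 CPM in the day 1 libraries and changed by -4.61 (SE 0.37, edgeR adjusted p = 1.1e-07). miR-1817 had 8.08, 12.6 and 18.7 CPM in the day 14 libraries, against 100.1, 82.3 and 135 CPM in the day 1 libraries, and its log2 fold change was -3.01 (SE 0.32, edgeR adjusted p = 1.9e-06). In each of them day 14 replicate 1 was the lowest library. miR-788-3p fell short of the level of the filter in that library but reached it at day 1, where it was high. miR-1020-3p, cut from an intron of *T16G12.1*, had 0, 5 and 7 counts at day 14 and 202, 77 and 330 counts at day 1. It too reached the level of the filter at day 1 and not at day 14. The log2 fold change was -4.55 (SE 0.49, edgeR adjusted p = 2e-06). Of hairpins known as mirtrons, which are cut from introns by splicing, miR-1020-3p was the only arm that fell, miR-1018 rose (4.02 (SE 0.59, edgeR adjusted p = 4.1e-05)) and miR-62 had 126 ± 26.4 CPM at day 14 and 106 ± 15.4 CPM at day 1 (0.25 (SE 0.23, edgeR adjusted p = 0.35)). In WBcel235, however, *mir-1018* lies between protein-coding genes. With 12, 7 and 16 counts in the day 1 libraries, miR-1018 did not reach the level of the filter at day 1. It was admitted by ages at which it was high. miR-70-5p and miR-81-5p, the rarer arms of abundant hairpins, changed by -3.29 and -4.10 on the log2 scale (edgeR adjusted p = 0.00087 and 4.3e-05). Neither reached the level of the filter at day 14, so both were admitted by day 1, where they were high.

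Of the families listed, the miR-35 family gained the largest share of counts. Its 8 hairpins took 22.3%, 20.4% and 19.9% of the counts in the day 14 libraries, against 2.53%, 1.98% and 2.50% in the day 1 libraries. All 8 of its 3p arms rose, with log2 fold changes from 2.62 to 5.48, beside 34.3% called higher over all tested. Among its 7 tested 5p arms 2 rose and 3 fell. miR-35-3p had 67713, 60932 and 54398 CPM in the day 14 libraries, against 5242, 5568 and 6667 CPM in the day 1 libraries. This gave a log2 fold change of 3.39 (SE 0.21, edgeR adjusted p = 1.1e-08). miR-40-3p, miR-37-3p, miR-41-3p and miR-36-3p changed by 3.38, 3.78, 3.12 and 2.62 (edgeR adjusted p from 2.7e-08 to 3.5e-07). In whole worms, more cells that make a microRNA and more RNA per cell cannot be told apart. With 3 libraries against 3 the smallest exact permutation p for a share is 0.1, so shares are given as values without a test.

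The miR-44 family and the miR-72 family also took more counts at day 14. miR-44-3p had 79769.8, 69513 and 49742 CPM in the day 14 libraries, against 13189, 26834 and 17558 CPM in the day 1 libraries. Its log2 fold change was 1.79 (SE 0.29, edgeR adjusted p = 9e-05). miR-45-3p carried the same counts as miR-44-3p in 5 of the 6 libraries and differed by 1 count in day 14 replicate 3, so reads of both hairpins cannot be told apart. miR-44-5p, which marks the *mir-44* hairpin alone, had 174 ± 34.5 CPM at day 14 and 22.5 ± 6.64 CPM at day 1, with a log2 fold change of 2.96 (SE 0.31, edgeR adjusted p = 1.8e-06). miR-45-5p had 57.6 ± 14.7 CPM at day 14 and 91.6 ± 29.8 CPM at day 1, and its log2 fold change was -0.66 (SE 0.29, edgeR adjusted p = 0.056). The miR-44 family had 1 fall in the main test and 2 with RLE factors, DESeq2, scaling by total counts and some other alternatives. In the miR-72 family, miR-72-5p had 70922, 38268 and 36704 CPM in the day 14 libraries, against 12394, 12882 and 15977 CPM in the day 1 libraries and changed by 1.82 (SE 0.27, edgeR adjusted p = 4.3e-05). miR-73-3p and miR-74-3p changed by 1.31 and 1.99 (edgeR adjusted p = 0.0011 and 0.00056).

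The miR-58 family, related to bantam of flies, lost counts. It took 14.3%, 16.8% and 15.7% of the day 14 libraries, against 25.8%, 26.3% and 27.0% of the day 1 libraries. The hairpins listed for it here were *mir-58*, *mir-80*, *mir-81*, *mir-82* and *mir-1834*. Of their 9 tested arms 7 fell and none rose, beside 34.7% called lower over all, with a median of -1.30. All 5 tested 5p arms were among the falls. They are the rarer strands of their hairpins except for miR-1834-5p, which had 42 counts at day 14 and 300 at day 1, against 3 and 5 counts of miR-1834-3p at the same ages. miR-58-5p had 159 ± 56.8 CPM at day 14 and 391 ± 58.8 CPM at day 1 (-1.30 (SE 0.27, edgeR adjusted p = 0.0007) on the log2 scale). miR-80-5p had 327 ± 79.0 CPM at day 14 and 997 ± 605 CPM at day 1 (-1.61 (SE 0.38, edgeR adjusted p = 0.002)), and miR-82-5p 2.52 ± 0.917 CPM at day 14 and 13.3 ± 4.31 CPM at day 1 (-2.38 (SE 0.37, edgeR adjusted p = 6.7e-05)). Of the abundant 3p arms, miR-58-3p and miR-82-3p did not pass and miR-80-3p and miR-81-3p passed narrowly, as given above.

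The miR-51 family, related to miR-100 of mammals, kept its part of the libraries at 16.4% ± 1.69 at day 14 and 16.8% ± 1.64 at day 1 (SD, n = 3 each). Some of its members rose and others fell. miR-52-5p had 25214, 14817 and 25823 CPM in the day 14 libraries, against 7930.3, 4687 and 8953 CPM in the day 1 libraries. The groups did not overlap, and the log2 fold change was 1.61 (SE 0.32, edgeR adjusted p = 0.00058). miR-53-5p, at a lower level, had 952 ± 303 CPM at day 14 and 243 ± 69.3 CPM at day 1 and changed by 1.97 (SE 0.31, edgeR adjusted p = 6.7e-05). miR-54-3p rose by 0.94 (SE 0.26, edgeR adjusted p = 0.0061), a call lost without day 14 replicate 1 or day 1 replicate 2 or with scaling by total counts (edgeR adjusted p = 0.052 to 0.093). miR-51-3p was lower, -1.43 (SE 0.43, edgeR adjusted p = 0.009), and lost its call without day 1 replicate 1 (edgeR adjusted p = 0.052). In all 4 of 11 arms rose and 3 fell, shares near the 34.3% and 34.7% over all tested. The rises numbered 2 without day 14 replicate 1, and the falls 1 without day 1 replicate 1. The median was 0.25, and -0.07 with scaling by total counts.

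**Figure D4:**
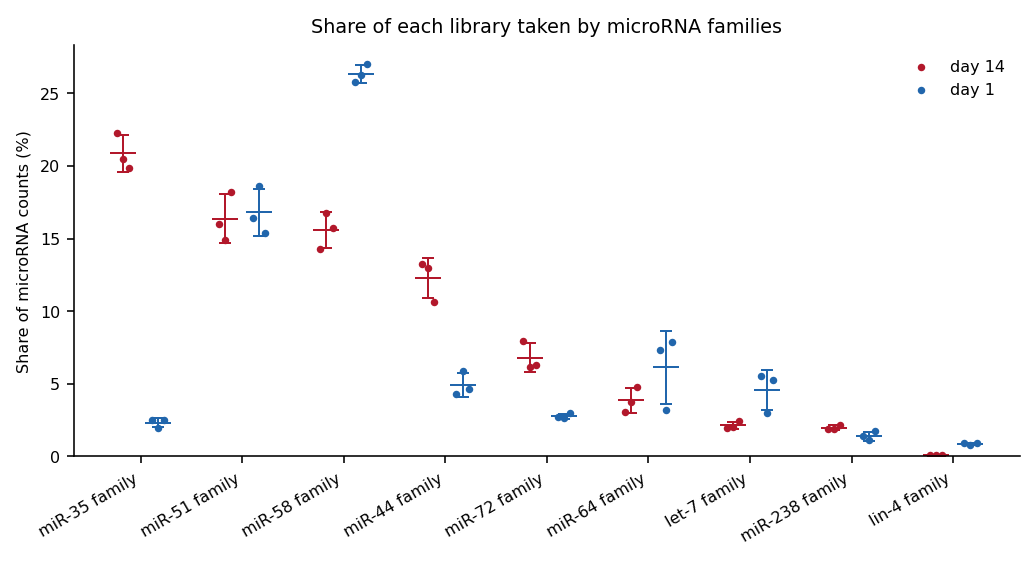
Share of the microRNA counts of each library (vertical axis, %) taken by 9 families, with a point per library, day 14 in red left of day 1 in blue, and bars for mean and SD. The miR-35 family lay at 19.9 to 22.3% at day 14 and at 1.98 to 2.53% at day 1, and the miR-58 family at 14.3 to 16.8% at day 14 and 25.8 to 27.0% at day 1.

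In the miR-64 family, 4 of 8 tested arms fell and none rose, beside 34.7% lower and 34.3% higher over all tested. miR-63-3p had 539 ± 93.3 CPM at day 14 and 1442 ± 186 CPM at day 1 (-1.42 (SE 0.24, edgeR adjusted p = 0.00015)), miR-63-5p 63.0 ± 20.4 CPM at day 14 and 190.4 ± 52.9 CPM at day 1 (-1.59 (SE 0.34, edgeR adjusted p = 0.0009)) and miR-229-3p 124 ± 41.7 CPM at day 14 and 400.4 ± 90.6 CPM at day 1 (-1.69 (SE 0.34, edgeR adjusted p = 0.00064)). miR-64-3p, a rare strand with 4, 4 and 2 counts at day 14 and 41, 15 and 26 counts at day 1, changed by -2.01 (SE 0.69, edgeR adjusted p = 0.019), and its call was lost without day 14 replicate 3 (edgeR adjusted p = 0.055). The 5p arms of *mir-64*, *mir-65* and *mir-66*, all above 10000 CPM, did not pass, as given above. *mir-47* fell with both arms, miR-47-3p having 2624, 2962 and 2453 CPM in the day 14 libraries, against 6928, 6645 and 8191 CPM in the day 1 libraries and a log2 fold change of -1.44 (SE 0.19, edgeR adjusted p = 1.2e-05). miR-46-3p, of the same seed, had 3252 ± 612 CPM at day 14 and 4046 ± 1135 CPM at day 1, and its change was -0.32 (SE 0.26, edgeR adjusted p = 0.3). miR-252-5p had 566 ± 151 CPM at day 14 and 1125 ± 424 CPM at day 1 (-0.99 (SE 0.30, edgeR adjusted p = 0.0098)), a call lost without day 14 replicate 1 or day 1 replicate 3 (edgeR adjusted p = 0.051 to 0.065). Of *mir-75* and *mir-79*, related to miR-9 of mammals, miR-75-5p fell (-1.33 (SE 0.31, edgeR adjusted p = 0.0015)), as did miR-79-3p (-0.74 (SE 0.27, edgeR adjusted p = 0.024)), whose call was lost without day 14 replicate 2 or day 1 replicate 3 (edgeR adjusted p = 0.072 to 0.078). Of the miR-2 family 2 of 6 tested arms were higher and 3 lower, beside 34.3% and 34.7% over all tested, with log2 fold changes from 4.78 for miR-43-3p to -2.70 for miR-250-5p.

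MicroRNAs for which mutants or overexpression are known to change worm lifespan moved in both directions. Of 20 tested arms from 12 hairpins 8 rose and 6 fell, beside 34.3% and 34.7% over all. miR-34-5p, known from mammals as a target of p53, had 5277, 2904 and 2745 CPM in the day 14 libraries, against 224, 162 and 267 CPM in the day 1 libraries. Its log2 fold change was 4.06 (SE 0.31, edgeR adjusted p = 6.5e-08), or 16.7-fold. miR-239a-5p, whose loss lengthens worm life, had 242, 110.0 and 182 CPM in the day 14 libraries, against 18.2, 15.0 and 23.0 CPM in the day 1 libraries. The groups did not overlap, and it changed by 3.24 (SE 0.42, edgeR adjusted p = 1.1e-05). miR-239b-5p had 27.3 ± 21.9 CPM at day 14 and 1.69 ± 0.508 CPM at day 1 and changed by 3.99 (SE 0.63, edgeR adjusted p = 6.7e-05). miR-238-3p, of the same family and at a far higher level, had 21837 ± 1741 CPM at day 14 and 12666 ± 2561 CPM at day 1 and changed by 0.79 (SE 0.19, edgeR adjusted p = 0.0025).

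miR-83-3p, shown above, had 154, 97.4 and 140.3 CPM in the day 14 libraries, against 58.3, 23.8 and 78.2 CPM in the day 1 libraries. Every day 14 library lay above every day 1 library, and day 1 replicate 2 was the lowest of the 6. The log2 fold change was 1.28 (SE 0.38, edgeR adjusted p = 0.009). The call was lost without day 14 replicate 1 or 3 or day 1 replicate 2 (edgeR adjusted p = 0.053 to 0.064) and with scaling by total counts (0.90, edgeR adjusted p = 0.091). Among the 84 rises, 72 were of at least 1 on the log2 scale, as this one was. The other arm, miR-83-5p, had 42.3, 54.6 and 66.6 CPM in the day 14 libraries, against 39.6, 35.8 and 30.8 CPM in the day 1 libraries, and its change was 0.62 (SE 0.28, edgeR adjusted p = 0.057). miR-49-3p, which shares the seed of miR-83-3p, had 1464, 964 and 1283 CPM in the day 14 libraries, against 399.9, 270.3 and 512 CPM in the day 1 libraries. It changed by 1.65 (SE 0.25, edgeR adjusted p = 5.9e-05) at a level above that of miR-83-3p at both ages. The 5p arm of neither hairpin passed.

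MicroRNAs known as markers of a tissue differed in direction. miR-60, the only hairpin listed here for the intestine, fell with both arms. miR-60-3p had 69.0, 86.0 and 121 CPM in the day 14 libraries, against 453, 159 and 545 CPM in the day 1 libraries. The groups did not overlap, and the log2 fold change was -2.07 (SE 0.45, edgeR adjusted p = 0.0011). miR-60-5p had 3 counts over the day 14 libraries and 105 over the day 1 libraries. miR-1-3p, of muscle, had 8025, 8159 and 6185 CPM in the day 14 libraries, against 12277, 12536 and 13480.1 CPM in the day 1 libraries. It fell by 0.78 on the log2 scale (edgeR adjusted p = 0.0059), and miR-1-5p had 53.7 ± 7.28 CPM at day 14 and 41.5 ± 3.24 CPM at day 1 (0.37 (SE 0.21, edgeR adjusted p = 0.14)). *mir-240* and *mir-786*, listed here as markers of the gonadal sheath and spermatheca, rose with all 3 tested arms. Whether they mark these tissues alone was not tested. miR-240-5p had 2069.5, 886 and 768 CPM in the day 14 libraries, against 67.4, 104 and 81.1 CPM in the day 1 libraries and changed by 3.88 (SE 0.42, edgeR adjusted p = 1.9e-06). miR-786-3p had 1678 ± 276 CPM at day 14 and 579 ± 54.6 CPM at day 1 and changed by 1.53 (SE 0.23, edgeR adjusted p = 4.7e-05). miR-240-3p changed by 0.93 (SE 0.25, edgeR adjusted p = 0.0051), a call lost without day 14 replicate 3 or day 1 replicate 1 or 2 or with scaling by total counts (edgeR adjusted p = 0.058 to 0.099). The glial marker miR-228-5p had 31874 ± 9773 CPM at day 14 and 20734 ± 6271 CPM at day 1 and its change was 0.62 (SE 0.30, edgeR adjusted p = 0.083). Of 6 tested arms of neuronal markers only miR-791-3p passed (0.82 (SE 0.31, edgeR adjusted p = 0.029)), and its call was lost without day 14 replicate 1, 2 or 3 or day 1 replicate 1 or 2 or with scaling by total counts or with summed lines (edgeR adjusted p = 0.069 to 0.24). The other arm, miR-791-5p, had a change of -0.65 (SE 0.29, edgeR adjusted p = 0.058) and was called lower in 8 of 15 alternatives, among them DESeq2 (adjusted p = 0.045). The median of the neuronal arms was 0.17, and -0.12 with scaling by total counts.

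Summed over its arms, *mir-60* took 0.00544%, 0.00758% and 0.0124% of the counts at day 14 and 0.0613%, 0.0142% and 0.0616% at day 1. The muscle marker *mir-1* took 0.636%, 0.722% and 0.637% at day 14 and 1.66%, 1.11% and 1.52% at day 1. *mir-240* and *mir-786* took 0.399%, 0.285% and 0.381% at day 14 and 0.151%, 0.104% and 0.160% at day 1. The neuronal markers took 0.0508%, 0.0539% and 0.0509% at day 14 and 0.0440%, 0.0476% and 0.0548% at day 1. No marker hairpin was at 0 at either age. The part of tissue composition in the other changes was not tested.

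Some neighbouring hairpins on the same strand, within 5000 bases of each other, moved alike. Of the 218 hairpins in the table, 208 were found in WBcel235, with 21 such groups. At least 2 arms were tested in 19 of these groups. In 6 of the 19 every tested arm rose. The 34.3% that rose over all tested is a share of arms and not of groups. Among the 6 were *mir-42* to *mir-44* on chromosome II (5 of 5), the *mir-2208* and *mir-2209* hairpins on chromosome IV (5 of 5) and *mir-4807*, *mir-4808*, *mir-4809* and *mir-2220* on chromosome X (4 of 4). The last group was at 58.2, 15.4, 6.84 and 4.83 CPM at day 14 and 2.25, 1.47, 0.482 and 0.0603 CPM at day 1, for miR-4807, miR-4808-3p, miR-4809-3p and miR-2220-3p. These groups were singled out after their values were seen. In the *mir-2208* and *mir-4807* groups, arms such as miR-2208a-5p and miR-2220-3p did not reach the level of the filter at day 1. They were admitted by ages at which they were high, so the filter favoured groups in which every tested arm rose. In *mir-357* and *mir-358*, on chromosome V, all 3 tested arms fell, and miR-250-5p and miR-61-5p, of neighbouring hairpins on the same chromosome, changed by -2.70 and -1.54 (edgeR adjusted p = 2e-05 and 0.00012). By chromosome, 4 of 25 tested microRNAs rose and 9 fell on I, 24 of 49 rose and 14 fell on II, 9 of 31 rose and 6 fell on III, and 12 of 32 rose and 8 fell on IV. On V 3 of 23 rose and 14 fell, and on X 31 of 77 rose and 29 fell, beside 34.3% and 34.7% over all tested. Neighbouring hairpins may come from 1 transcript and are not independent.

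Both arms of a hairpin did not always change together. Over the 82 hairpins with both arms tested, Pearson's r between the log2 fold changes of the 5p and the 3p arm was 0.61, given as a description across hairpins of the same libraries. Both arms rose for 12 hairpins and both fell for 16. In 37 only 1 arm passed, in 10 neither did, and in 7 the 5p arm fell while the 3p arm rose. These 7 were miR-36, miR-40, miR-41, miR-54, miR-55, miR-74 and miR-246. By name, 48 of 113 tested 3p arms rose and 39 fell, against 23 and 37 of 103 5p arms, beside 34.3% and 34.7% over all tested. The 3p arms took 71.6% ± 1.01 at day 14 and 67.3% ± 0.979 at day 1 (SD, n = 3 each) of the counts.

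Among the rarer strands of the hairpins, falls outnumbered rises. The less abundant arm was set by the mean CPM over the same 6 libraries. Where both arms lie at near-equal levels, the label therefore depends in part on the change itself. Of the 82 less abundant arms 14 rose and 36 fell, against 32 and 25 of the 82 more abundant arms. Over all tested microRNAs 34.3% rose and 34.7% fell. The less abundant arms together took 0.404%, 0.420% and 0.453% of the counts in the day 14 libraries, against 0.803%, 0.878% and 0.585% in the day 1 libraries. Every day 14 library was below every day 1 library. Without the miR-35 family, 11 of 75 less abundant arms rose and 34 fell.

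The arm ratio was then tested within each library, as log2 of the 5p over the 3p count with 1 added to each, which needs no scaling between libraries. It differed between day 14 and day 1 for 42 of 82 hairpins (51.2%), with 29 shifted toward 3p (35.4%) and 13 toward 5p (15.9%). These include miR-44 (toward 5p, 1.14) and miR-45 (toward 3p, -2.47). Their 3p reads cannot be told apart, so neither ratio is that of its hairpin alone. In 60 of 82 hairpins the rarer strand lost ground to its partner at day 14, and over the 82 the median change of the log2 ratio of the rarer over the more abundant strand was −0.90. Of the 42 shifts, 34 were away from the less abundant arm. Without day 14 replicate 1 the test called 27 hairpins, 19 toward 3p and 8 toward 5p. A fit of only the libraries of day 14 and day 1 also called 27, with 6 toward 5p.

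The largest shifts toward 3p were in the miR-35 family. The log2 ratio of miR-40 was -12.56, -10.70 and -9.88 in the day 14 libraries, against -5.37, -5.60 and -5.86 in the day 1 libraries, a change of -5.44 (SE 0.63, limma adjusted p = 2.8e-05). For miR-39 it was -13.06, -9.79 and -9.15 in the day 14 libraries, against -5.63, -6.11 and -5.77 in the day 1 libraries, a change of -4.83 (SE 0.91, limma adjusted p = 0.0011). In both, day 14 replicate 1 was the lowest and the groups were far apart. miR-40-5p had 16.5 ± 10.5 CPM at day 14 and 58.9 ± 7.35 CPM at day 1 while miR-40-3p had 30083 ± 5660.2 CPM at day 14 and 2892 ± 455 CPM at day 1. miR-39-5p had 92.7 ± 67.7 CPM at day 14 and 148 ± 7.59 CPM at day 1 and did not pass (-0.67 (SE 0.67, edgeR adjusted p = 0.38)). In miR-41 the 5p arm was the more abundant one at day 1, and its log2 ratio was -1.06, 1.25 and 1.67 in the day 14 libraries, against 5.17, 6.06 and 5.39 in the day 1 libraries. That change was -4.92 (SE 0.69, limma adjusted p = 0.00016), although the fall of miR-41-5p itself (-1.40 (SE 0.56, edgeR adjusted p = 0.036)) was lost without day 14 replicate 1 or 2 or day 1 replicate 1, 2 or 3 (edgeR adjusted p = 0.052 to 0.089). miR-37 and miR-36 shifted by -4.45 and -3.92, and miR-74, of the miR-72 family, by -3.41 (SE 0.76, limma adjusted p = 0.0038).

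Toward 5p, miR-240 shifted most. Its log2 ratio was 1.01, -0.05 and -0.80 in the day 14 libraries, against -2.94, -2.29 and -3.10 in the day 1 libraries, a change of 2.83 (SE 0.51, limma adjusted p = 0.00086). The 3p arm was the more abundant one in each day 1 library, and both arms were about equal at day 14. miR-788 had log2 ratios of 0.00, 0.29 and 0.62 in the day 14 libraries, against -2.30, -2.55 and -2.35 in the day 1 libraries, a change of 2.70 (SE 0.46, limma adjusted p = 0.0007). Both of its arms fell, and the 3p arm fell more. miR-229, miR-34 and miR-72 shifted by 2.41, 1.47 and 1.38 (limma adjusted p from 0.0038 to 0.0046). miR-52 shifted by 1.38 (SE 0.53, limma adjusted p = 0.045), a call lost without day 14 replicate 1 or 3 or day 1 replicate 1, 2 or 3 or in a fit of only day 14 and day 1 (limma adjusted p = 0.051 to 0.18). The mean log2 ratio lay on other sides of 0 at the 2 ages in 4 hairpins, miR-240, miR-788, miR-75 and miR-2214. Library by library the 3p arm still led in 2 of 3 day 14 libraries for miR-240, and in 2 of 3 day 1 libraries for miR-2214. For miR-75 all day 14 libraries were below 0 and all day 1 libraries above it. For miR-83 the log2 ratio was -1.86, -0.83 and -1.07 in the day 14 libraries, against -0.56, 0.58 and -1.34 in the day 1 libraries, and its change was -0.82 (SE 0.52, limma adjusted p = 0.2).

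**Figure D5:**
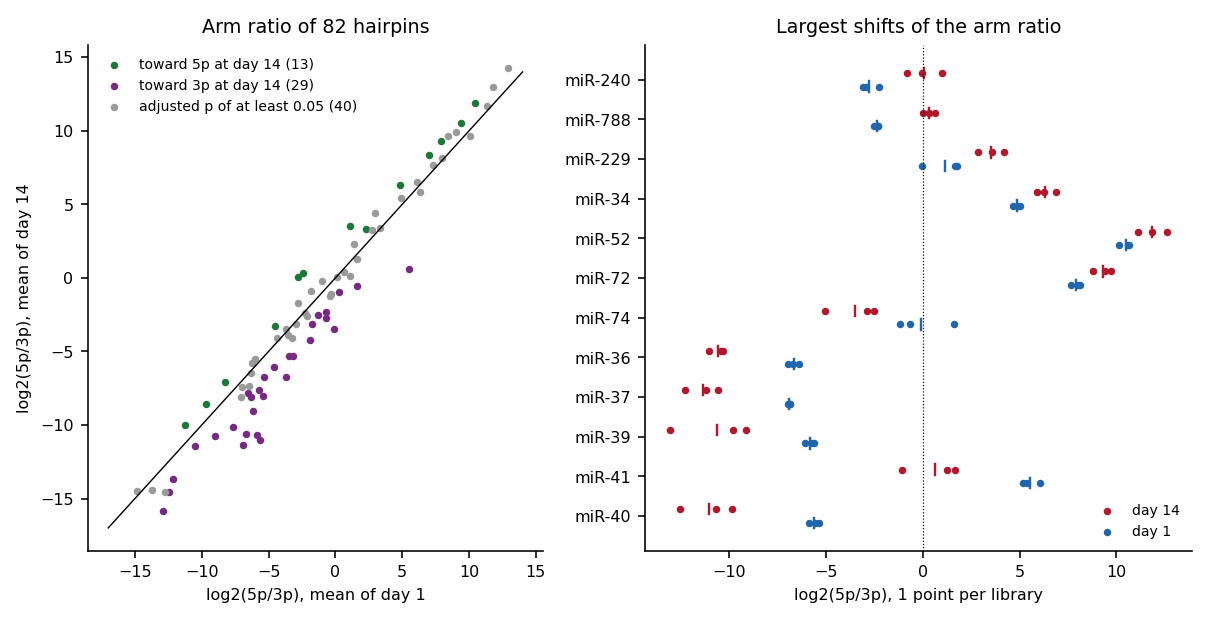
Left, the mean log2 ratio of 5p over 3p counts of 82 hairpins at day 14 (vertical axis) against day 1 (horizontal axis), with 13 shifted toward 5p in green, 29 toward 3p in purple and the line of equality. Right, the ratio in each library for the 6 hairpins with the largest shift in each direction, day 14 in red above day 1 in blue, with a bar at each mean. Of these 12, miR-37, miR-40 and miR-39 have the lowest means at day 14, and the means of miR-240 and miR-788 lie on other sides of 0 at the 2 ages.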

How the data were processed

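Small RNA of whole N2 worms was sequenced from 3 biological replicates each at days 1, 7, 14 and 21 of adulthood. Worms were handpicked into TRIzol, RNA was isolated with miRNeasy columns, and BGI made the small RNA libraries and ran them on an Illumina instrument. The authors aligned reads with Tophat to WBcel215.67, assigned them to known microRNAs with miRDeep and deposited raw counts per mature microRNA. Versions, and how reads shared by near-identical microRNAs were assigned, are not given in the sources used here. The 12 deposited CPM columns were not used. Nor were 6 tables of fold changes and p-values between pairs of ages, which hold the authors' own comparisons.

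Of 375 lines naming a microRNA, the line with the largest total was kept for each of 368 mature names, 7 of which had more than 1 line. A line with no name was left out. Counts were filtered by edgeR 4.0.16 (filterByExpr by age, minimum count 10) in R 4.3.3, scaled by TMM and tested with the quasi-likelihood test in 1 fit of 12 libraries with age as the only term (8 residual degrees of freedom), with Benjamini-Hochberg adjustment over 245 microRNAs. Arm ratios were tested with limma 3.58.1. Every pair of replicates of an age differed by more than counting noise (ratio of chi-square to its degrees of freedom from 321 to 3680), so none was merged. Positions are those of WBcel235, since the counts carry no coordinates.

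Named are the 12 largest changes in each direction among calls without overlap, the 10 most abundant at each age, all at 10000 CPM or more, the largest rise and fall of each abundance class, the up to 4 arms with the lowest adjusted p in each family or marker list, both arms of the 6 hairpins with the largest arm shift in each direction, tested microRNAs with at most 3 counts over an age, and the arms of *mir-83*, *mir-56* and *mir-82*. Classes use the mean CPM over the 6 libraries. The members, lists and tests were chosen with earlier results of these data known. Alternatives were RLE factors, total counts, no filter, DESeq2 1.42.0, a minimum of 10 counts in each library, only the 2 ages, a replicate block, summed lines, each library left out in turn and, for arm ratios, a prior count of 5 and thinned libraries. Leaving out day 14 replicate 1 and day 21 replicate 1 together was added after the data were seen.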

Additional observations from a re-analysis of the deposited data

How the results depend on the processing

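The counts called higher and lower stayed within 1.5 times of 84 and 85 under every alternative except that 50 were higher, and 70 lower, where each of the 12 libraries needed at least 10 counts, which left 182 microRNAs to test. No called microRNA changed direction. DESeq2 gave 84 higher and 89 lower, RLE factors 83 and 88, total counts 69 and 99, no filter 83 and 94, and only day 14 and day 1 in the fit 72 and 69. Leaving out 1 library gave 146 to 164 calls, 72 to 78 of them higher and 74 to 88 lower. Of 86 named microRNAs that were called, 72 kept their call under every alternative. Of 31 named and not called, 14 were called under at least 1 alternative, miR-65-5p and miR-791-5p under 8 of 15.

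The arm ratios depended more on the samples. Only day 14 and day 1 in the fit called 27 hairpins, 6 of them toward 5p, against 42 and 13. Leaving out 1 library gave 27 to 46 hairpins, 19 to 30 toward 3p and 8 to 16 toward 5p. The 27 came without day 14 replicate 1 and the 46 without day 1 replicate 3. With day 14 replicate 1 and day 21 replicate 1 both left out, an alternative chosen after the data were seen, 79 microRNAs were higher and 77 lower, and 8 hairpins shifted toward 5p and 23 toward 3p.

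Between libraries of the same replicate number, the correlations of their deviations from the mean of their age were −0.056, 0.46 and 0.13. Between unlike numbers they ran from -0.44 to 0.36. With 3 libraries per age these values cannot show whether the numbers pair the libraries, and the main fit held no such term. With a replicate block 82 microRNAs were higher and 82 lower, and 12 hairpins shifted toward 5p and 28 toward 3p. Under the block the named calls of miR-80-3p and miR-41-5p (edgeR adjusted p = 0.052 and 0.058) and of the miR-52 ratio (limma adjusted p = 0.0502) were lost, and miR-229-5p was called higher (edgeR adjusted p = 0.038), the only rise of the miR-64 family. Below 10 CPM, depth limits what could be tested.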
